A study of Homo sapiens with 17 samples.

Results

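The HOXD cluster was followed in human pluripotent stem cells (PSCs) of the naive and the primed state, fragment by fragment, from HOXD13 to HOXD1. It spans chr2:176091257-176192678 (GRCh38), which HindIII cuts into 25 fragments. These are 25 of the 88413 fragments listed in the promoter interaction data as a whole. All 9 HOXD genes (HOXD1, HOXD3, HOXD4, HOXD8, HOXD9, HOXD10, HOXD11, HOXD12 and HOXD13) had a promoter on at least 1 of 10 baited fragments, of 15982 baited fragments in all. A fragment was given to a gene when it held one of the gene's GENCODE starts or the 1000 bp upstream, since the lists themselves name no genes. HOXD10 was reached only through a bait that it shares with HOXD11, and its main start lay on an unbaited fragment. So did the main start of HOXD3, whose bait carries an upstream start. The main start of HOXD11 lies on the bait shared with HOXD10. The bait called HOXD11 below holds an upstream start of that gene or the 1000 bp before it.

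Naive and primed cells were of the same human embryonic stem cell line, labelled WA09/H9 NK2. Naive cells were kept on Matrigel with a MEK inhibitor, a GSK3 inhibitor, LIF and the protein kinase C inhibitor Go6983, and primed cells on Vitronectin in TeSR-E8, so the cell state cannot be told apart from the medium. Promoter capture Hi-C (PCHi-C) came as 1 interaction list per state, combined from 2 replicates, Hi-C as 1 library per state, and H3K4me1 CUT&RUN as 2 naive and 3 primed libraries. Only H3K4me1 therefore allowed a test between the states, and its replicates are described as biological, with no word on whether they were separate cultures.

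HOX genes encode homeodomain transcription factors that give cells their position along the body axis and the limb. In HOXD the genes stand in the order in which they are used, with HOXD13 at the end next to EVX2 and HOXD1 at the other, and each end faces a large gene-poor domain that holds enhancers for limbs, digits and other tissues. In pluripotent cells the cluster is known as a target of Polycomb repression. H3K4me1 is a histone mark found at enhancers and around promoters. Below, the 5′ side is the EVX2 side (lower coordinates), and the 3′ side is the side beyond HOXD1.

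Several stretches of the cluster carry the results that follow. The first is a HindIII fragment of 171 bp, chr2:176094048-176094218 (plus strand), which lies whole in the intron of HOXD13 between exon 1 and exon 2. It was contacted only in primed cells. CpG dinucleotides are in capitals, and there are 5 of them in this fragment.
HOXD13 intron fragment: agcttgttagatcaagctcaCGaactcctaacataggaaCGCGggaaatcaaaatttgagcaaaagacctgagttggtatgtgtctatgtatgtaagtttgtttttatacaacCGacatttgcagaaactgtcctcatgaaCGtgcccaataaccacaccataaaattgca

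The next are the 250 bases before the RefSeq starts (GRCh38.p14, plus strand) of HOXD12 at chr2:176099545-176099794 and HOXD4 at chr2:176151300-176151549, the only members whose start tile was called in H3K4me1, again with CpG in capitals. RefSeq promoter sequences were matched for 8 of the 9 members, and HOXD9 had none.
HOXD12 promoter: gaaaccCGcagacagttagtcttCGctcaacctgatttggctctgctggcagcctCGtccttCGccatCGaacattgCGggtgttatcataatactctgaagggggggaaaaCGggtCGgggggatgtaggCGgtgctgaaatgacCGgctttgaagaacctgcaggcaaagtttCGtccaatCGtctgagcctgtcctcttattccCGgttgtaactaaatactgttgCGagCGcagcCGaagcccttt
HOXD4 promoter: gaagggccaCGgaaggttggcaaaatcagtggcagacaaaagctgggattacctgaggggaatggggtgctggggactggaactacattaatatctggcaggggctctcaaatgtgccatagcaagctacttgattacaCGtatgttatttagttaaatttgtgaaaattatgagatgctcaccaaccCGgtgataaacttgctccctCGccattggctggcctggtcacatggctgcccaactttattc
These promoters differ in CpG content. HOXD4 holds 4 CpG in 250 bases, fewer than any of the other 7 members, and 70.7% of all 35116 RefSeq promoters hold at least as many. HOXD12 holds 16, and HOXD1 holds the most, 31, a number reached by 10.9% of promoters.

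The last is the centre of the H3K4me1 tile that was higher in naive cells by the widest margin, chr2:176142101-176142400. It lies between the main (Ensembl canonical) transcripts of the genes, but after an upstream start of HOXD3, whose longer transcripts may span it. The stretch holds no match to the CTCF core, AP-2 or octamer letters searched below, and only 2 CpG.
Naive H3K4me1 tile: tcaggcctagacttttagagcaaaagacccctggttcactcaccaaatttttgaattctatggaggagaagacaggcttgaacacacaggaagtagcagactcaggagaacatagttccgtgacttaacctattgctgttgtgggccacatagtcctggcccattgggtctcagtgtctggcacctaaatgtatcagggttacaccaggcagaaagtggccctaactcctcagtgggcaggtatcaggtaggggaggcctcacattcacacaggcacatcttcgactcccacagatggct

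CTCF, a DNA-binding protein found at domain borders and loop anchors, was searched by its 12-base core on both strands (CCA, any 2 bases, AG, any 2 bases, GGC). The cluster held 5 matches, shown with 10 bases on each side and the core in capitals, each read in the direction of the motif.
chr2:176097749-176097780, minus strand: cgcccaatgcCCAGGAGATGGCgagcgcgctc
chr2:176106207-176106238, minus strand: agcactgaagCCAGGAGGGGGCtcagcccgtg
chr2:176140635-176140666, plus strand: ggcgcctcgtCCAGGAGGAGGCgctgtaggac
chr2:176163446-176163477, plus strand: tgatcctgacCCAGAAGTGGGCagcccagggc
chr2:176178081-176178112, minus strand: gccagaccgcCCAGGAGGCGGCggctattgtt
This is 4.93 matches per 100 kb against 2.51 over chromosome 2, where 6.87% of the 76826 HindIII fragments and 1.20% of 500 bp tiles hold at least 1. None of the tiles called in H3K4me1 held a match. A match is a run of letters and was not measured as a binding site.

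In the interaction lists an interaction is a pair of fragments with a CHiCAGO score of at least 5, where the score rises as the reads exceed those expected at that distance. The 10 HOXD baits had 162 interactions in naive and 257 in primed PSCs, a ratio of 1.59 (95% interval from counting error 1.30 to 1.93). Over all data the primed list was longer by a factor of 1.12. Of the HOXD interactions 106 were in both lists, which is 65.4% of the naive ones (Wilson interval 57.8 to 72.3) and 41.2% of the primed ones (35.4 to 47.3). Over the whole lists these shares were 49.6% and 44.2%. The interval of the naive share lay above the value of the whole list, and that of the primed share covered it. The pairs come from neighbouring baits and partners and are not independent. The intervals therefore cover counting error only, and the difference from the whole lists was not tested. When both ends had to match only within 10 kb, the shares were 90.7% and 65.0%.

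The plainest contrast between the lists lay in distance. Counting all 25 fragments of the cluster, naive cells had 170 interactions and 12 of them spanned over 1 Mb, against 292 and 114 in primed cells. The ratio of the long ones was 9.50 (5.24 to 17.2), where all promoters together gave 4.49. The share over 1 Mb was 7.06% in naive and 39.0% in primed cells, against 1.68% and 6.73% over all data. No naive interaction of HOXD reached beyond 1088 kb. Over 2 Mb there were 0 in naive and 65 in primed cells, where the whole lists held 132 and 1385. The ratio rests partly on interactions with few reads: with at least 10 reads per interaction it was 5.20, and with a score of at least 10 it was 20.7. The median number of reads, as combined and rounded by the authors' pipeline, was 20 per naive and 14 per primed HOXD interaction.

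Gene by gene, the 5′ end of the cluster was ordered differently from the 3′ end. The HOXD13 bait, chr2:176091257-176094047, had 17 naive interactions, all to the 5′ side, and 36 primed ones, of which 33 went to the 5′ side, 1 to the 3′ side and 2 stayed in the cluster. HOXD13 is the gene of the digits and the genital bud. Its interactions over 1 Mb numbered 1 in naive and 15 in primed cells.

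The HOXD12 bait, chr2:176096430-176102794, had 29 naive and 34 primed interactions, of which 1 and 16 spanned over 1 Mb. In naive cells 28 of the 29 went to the 5′ side. The bait called HOXD11 here, chr2:176102795-176104318, does not hold the main start of HOXD11, which lies on the next bait. It had 15 interactions in each state, yet only 3 pairs were in both lists. None of its naive interactions and 9 of its primed ones spanned over 1 Mb.

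The bait shared by HOXD10 and HOXD11, chr2:176104319-176111323, was the turning point. In naive cells 11 of its 18 interactions went to the 5′ side and 7 to the 3′ side. In primed cells these were 20 and 12 of 34, with 2 inside the cluster and 17 over 1 Mb. It was the one bait with several interactions on both sides in naive cells.

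From HOXD9 onwards every naive interaction went to the 3′ side. The HOXD9 bait, chr2:176120306-176126656, had 14 naive and 21 primed interactions. The HOXD8 bait, chr2:176126990-176134901, had 24 and 28, with 20 in both lists, and held more naive interactions over 1 Mb than any other bait of the cluster, 5 against 10 in primed cells. The bait at chr2:176134902-176139640 carries an upstream start of HOXD3 and the start of the antisense RNA HOXD-AS2. It was the most connected of the 10 in both states, with 33 and 38 interactions and 26 in both lists.

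HOXD4 had 2 baits. The one that it shares with the microRNA gene MIR10B, chr2:176148895-176150822, had 6 naive and 17 primed interactions, and the one over the gene, chr2:176150823-176154490, had 6 and 19. The HOXD1 bait, chr2:176181289-176192678, which also holds starts of the antisense RNA HAGLR, had none in the naive list and 19 in the primed list. The absence of a pair from a list says that its score was under 5, not that contact was absent.

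Of the 10 baits, 4 (HOXD13, both HOXD4 baits and HOXD1) had at least 2 times as many interactions in primed cells, where 29.4% of the 4171 baits with at least 10 interactions in a state did so. None had 2 times as many in naive cells, where 18.0% of baits did. All 10 had at least 2 times as many over 1 Mb, against 14.5% of those baits. HOXD1 alone had no naive interaction, which was so for 2.37% of them. The baits lie next to each other and share partners, so they are not independent observations.

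**Figure D1:**
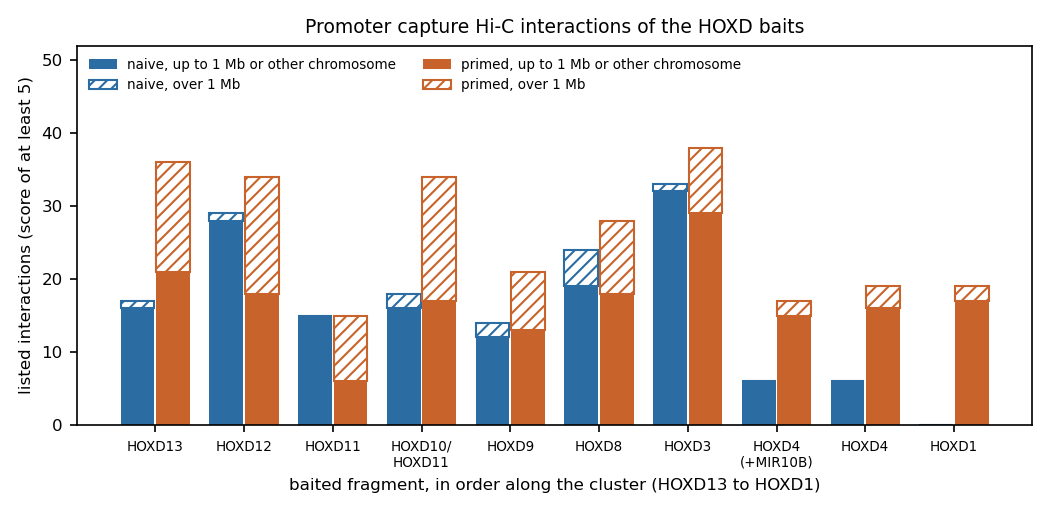
Number of listed PCHi-C interactions (score of at least 5) of each HOXD bait in naive (blue) and primed (orange) PSCs, in order along the cluster, with interactions over 1 Mb hatched. HOXD11 has 15 in each state, HOXD1 has none in naive and 19 in primed cells, and every primed bar has a hatched part, from 2 to 17 interactions.

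The partners fell into 111 fragments, 15 of them baited, which form 17 blocks when partners less than 50 kb apart are joined. Partners in both lists numbered 50, with 25 in the naive list alone and 36 in the primed list alone. Of the blocks 6 were contacted in both states, 9 in primed cells alone and 2 in naive cells alone.

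The strongest of the primed blocks was the pair of homeobox genes DLX1 and DLX2, regulators of forebrain interneurons and of the jaw, 3983 kb to the 5′ side at chr2:172079853-172108372. This block had 59 primed interactions with the cluster and 0 naive ones. Of these 12 ended on fragments with a start of DLX1 and 6 on that with the start of DLX2. All 10 HOXD baits contacted it, as did 11 unbaited fragments of the cluster, in 19 of the 59 interactions. It made up 51.8% of all primed HOXD interactions over 1 Mb. The best score, 65.8, lay between the HOXD10/HOXD11 bait and the baited fragment chr2:172089426-172092129, and was second among the 673 primed interactions over 3500 kb in the whole list. The reads behind these interactions were few, between 4 and 26 with a median of 7.

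Along the cluster the best DLX score of a bait was 29.6 for HOXD13, 44.6 for HOXD12, 32.0 for HOXD11 and 65.8 for HOXD10/HOXD11. Beyond these it was 10.7 for HOXD9, 10.3 for HOXD8 and 17.3 for the HOXD3/HOXD-AS2 bait. The unbaited fragment with the main start of HOXD3, chr2:176154491-176157608, reached 30.8 with the DLX block. The HOXD4 baits had 7.81 (with MIR10B) and 17.7, and HOXD1 had 18.1. The 4 baits at the 5′ end held 25 of the bait interactions with the DLX block, and the other 6 held 15.

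The HOXD13 intron fragment printed above, 171 bp long, had no naive interaction and 5 primed ones, all over 1 Mb. Of these 3 led to the DLX block with scores of 6.67, 12.4 and 27.1, 1 led to SP9 with 11.2 and 1 to CHN1 with 5.25. The next fragment, chr2:176094219-176096429, which holds exon 2 of HOXD13, had 1 naive and 3 primed interactions. The reads behind the 5 numbered from 4 to 12.

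Other primed blocks held further developmental genes. SP9, a zinc finger gene of the limb ridge and forebrain, lay in a block 1747 kb to the 5′ side that had 12 primed and 0 naive interactions. Of these 8 ended on the SP9 fragment, with a best score of 15.5, and 4 on that of the non-coding gene LINC01305, with 19.6. TBR1, a T-box gene of the cortex, lay in a block 14662 kb away with 4 primed interactions, of which 2 ended on the TBR1 fragment with a best score of 12.2, 1 on the SLC4A10 bait and 1 on a fragment with no promoter. A block 1.55 kb from PAX3, a paired-box gene of the neural crest and muscle, holds the start of its neighbour CCDC140. It lay 46108 kb to the 3′ side and had 2 primed interactions, from the HOXD13 and HOXD10/HOXD11 baits, with a best score of 11.2. The block by WIPF1, a regulator of actin, had 10, from the HOXD13, HOXD12 and HOXD10/HOXD11 baits, but only 2 of them ended on the WIPF1 bait and 8 on fragments with no promoter.

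Among 34 developmental regulators of chromosome 2 in a list chosen by hand, with earlier results of these data known, 30 had a baited promoter. In primed cells 3 of these 30 (DLX1, DLX2 and SP9), or 10%, contacted the cluster through a baited promoter fragment, and in naive cells 0. TBR1 did so through an unbaited one. Of all 1175 baits of chromosome 2 over 1 Mb from the cluster, 0.766% did so in primed and 0.170% in naive cells. The baits of DLX1, DLX2 and SP9 are among these, and DLX1 and DLX2 lie in 1 block. The first share counts genes and the second baits, so the 2 shares were not tested against each other. SP5, GAD1, NEUROD1, IHH, MEIS1, EN1 and the other members of the list had no listed interaction with HOXD. Of 13 neighbouring genes outside the cluster 3 were contacted in naive (MTX2, ATP5MC3 and CHN1) and 3 in primed cells (EVX2, CHN1 and WIPF1), while LNPK, ATF2 and NFE2L2 were not. No partner held a promoter of a HOXA, HOXB or HOXC gene.

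The only partner on another chromosome was chr7:24201643-24204631, for which NPY is the nearest coding gene. It paired with the HOXD4/MIR10B bait in primed cells, with a score of 38.7 from 6 reads.

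Contacts within about 1 Mb were shared by the states to a greater degree. On the 3′ side the block chr2:176543254-176668197, which holds the non-coding genes LINC01116 and LINC01117, was the largest, with 72 naive and 105 primed interactions and 64 in both lists. The best scores were 43.3 and 55.4, both from the HOXD3/HOXD-AS2 bait. The HOXD1 bait had 12 primed interactions with it and no naive one, and the HOXD4 baits had 3 naive ones each and 11 (with MIR10B) and 9 primed ones.

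Farther on, the block chr2:177138829-177164938, between the cluster and HNRNPA3, had 10 naive and 25 primed interactions, and all 10 naive ones were also in the primed list. Nearer to the cluster, chr2:176380109-176467160 had 14 and 11. The start of MTX2 was contacted only in naive cells, by both HOXD4 baits with scores up to 5.98.

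On the 5′ side 2 blocks had more naive than primed interactions, while the block by CHN1 had 2 naive and 6 primed ones. The block chr2:175173424-175435560, next to ATP5MC3, had 53 naive and 40 primed interactions, with 25 in both lists. There the HOXD13 bait went the other way, with 12 naive and 16 primed ones, and the other baits that contacted it had more in naive cells. The block chr2:175679835-175697742, beyond LNPK, had 16 and 7. The HOXD11 bait had 14 naive and 4 primed interactions with these 2 blocks, while its 5 interactions with the DLX block were in the primed list alone.

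Inside the cluster no interaction was listed in naive cells and 6 were listed in primed cells. All started from the HOXD13, HOXD12, HOXD11 or HOXD10/HOXD11 bait. Of these 4 ended on the HOXD4 bait, with scores of 5.23, 5.43, 6.13 and 7.72, and 2 on an unbaited fragment in HOXD3, with 5.00 and 5.95. All lie close to the lower bound of the list.

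**Figure D2:**
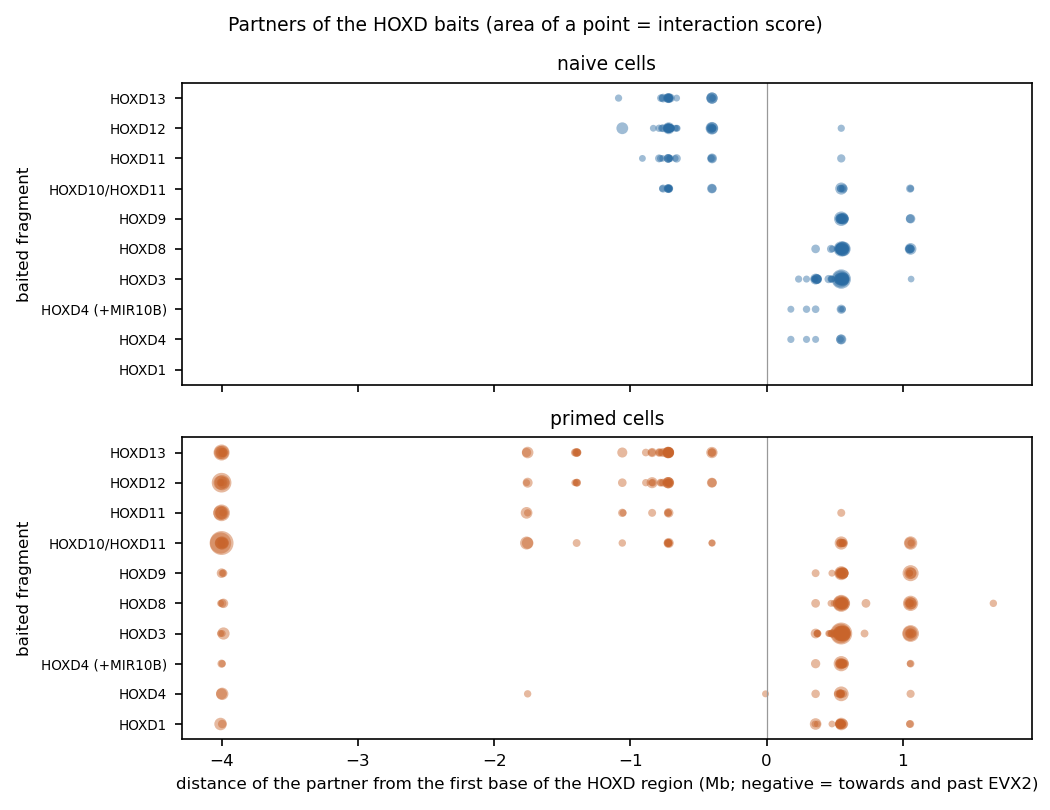
Partners of each HOXD bait in naive (upper) and primed (lower) PSCs, by distance in Mb from the first base of the cluster, with negative distances on the EVX2 side and the area of a point in proportion to the score. Naive interactions of HOXD13, HOXD12 and HOXD11 lie on the left, apart from 1 each of HOXD12 and HOXD11 on the right, those of HOXD9 to HOXD4 lie on the right, and the column about 4 Mb to the left, DLX1 and DLX2, is present in primed cells for all 10 baits. Partners inside the cluster, on another chromosome or farther away than the axis are not drawn.

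The Hi-C libraries give a coarser view of the same split, in bins of 100 kb. They held 31310843 naive and 52056334 primed contacts, and the PCHi-C libraries were captured from Hi-C material, so agreement between the assays is not independent. The border between 2 bins falls inside HOXD12. The bin with EVX2, HOXD13 and the start of HOXD12 sent 72.6% of its naive contacts within 500 kb to the 5′ side (830 contacts against 313, Wilson interval 70.0 to 75.1) and 65.6% of its primed ones (63.1 to 68.0). The bin with HOXD11 to HOXD1 sent 19.6% (17.8 to 21.4) and 20.1% (18.4 to 22.0) there. The intervals cover counting error only. The opposite leaning of the bins was present in both states. It was not particular to the cluster. The next bin on the EVX2 side sent 55.1% of naive and 62.5% of primed contacts to the 5′ side, and the next bin beyond HOXD1 30.0% and 21.1%. Most of the bin with HOXD13 also lies outside the cluster.

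Contacts were then divided by the mean of all pairs of bins at the same distance on chromosome 2. For the HOXD11 to HOXD1 bin, the LINC01116 block stood at 2.76 in naive (exact Poisson interval 2.50 to 3.04) and 3.06 in primed cells (2.82 to 3.32). The HOXD13 bin stood at 0.871 and 0.709 there. At the ATP5MC3 block the HOXD13 bin had 2.26 (2.02 to 2.52) and 2.45 (2.25 to 2.68), while the HOXD11 to HOXD1 bin had 1.41 (1.20 to 1.65) and 0.823 (0.693 to 0.971). The block before HNRNPA3 stood at 4.30 (3.39 to 5.38) and 3.15 (2.56 to 3.82) for the HOXD11 to HOXD1 bin. Scaling the mean by the coverage of each bin lowered the naive values of the HOXD11 to HOXD1 bin to 1.71 at the LINC01116 block and 2.83 at the last one. The primed values became 2.50 and 2.76, so how the states compare at these blocks depends on the scaling. The naive file also leaves out pairs with few contacts. At the last block, 1000 kb away, this may already lower the naive mean of 17.9 contacts and raise the naive ratio, which was not tested.

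In the primed library the DLX bins had 24 contacts with the HOXD11 to HOXD1 bin, 4.48 times the mean at that distance (2.87 to 6.67), and 14 with the HOXD13 bin, 2.53 times (1.38 to 4.24). With the mean scaled by coverage these were 7.57 and 4.28. With the TBR1 bin the HOXD11 to HOXD1 bin had 9 contacts, 10.8 times (4.96 to 20.6). No other of the 2225 pairs at that distance had as many. With the PAX3 bin each HOXD bin had 6, and again no other pair at the same distance had as many. The SP9 bin stood at 1.90 (1.19 to 2.88) for the HOXD11 to HOXD1 bin and at 0.941 for the HOXD13 bin.

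The naive file lists no contact of the cluster with the DLX, TBR1, SP9 or PAX3 bins, but this cannot be read as a lack of contact. At the DLX distance the mean over all pairs was 0.0235 contacts for naive and 5.54 for primed cells, because the naive file leaves out pairs with few contacts. Hi-C could therefore not be compared between the states beyond about 1 Mb.

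**Figure D3:**
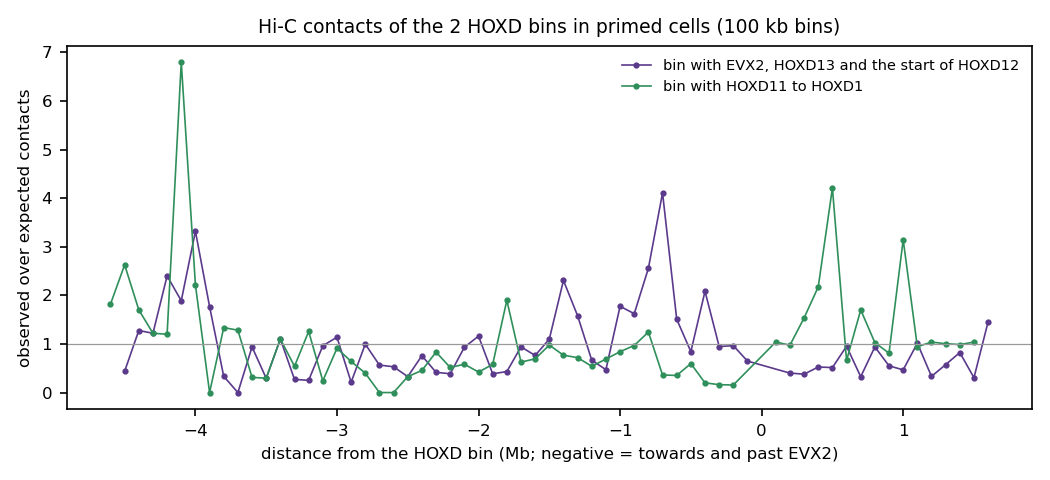
Hi-C contacts of the 2 HOXD bins in primed PSCs, divided by the mean of all pairs at the same distance on chromosome 2, against the distance from the bin in Mb (negative on the EVX2 side). The bin with HOXD11 to HOXD1 has peaks on the right, at the LINC01116 block and before HNRNPA3, and 1 on the far left at DLX1 and DLX2, while the HOXD13 bin has its peaks on the left.

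H3K4me1 was read as log2 RPM (reads scaled to the depth of each library) in tiles of 500 bp. The 5 libraries held 21785478 and 6743808 reads in naive and 8853586, 7892016 and 26596514 reads in primed cells, and a tile without reads stands at 0.9 reads. Naive markers carried more H3K4me1 in naive cells in 5 of 5 genes with a listed promoter fragment (KLF17, DPPA5, DPPA3, SUSD2 and KHDC3L), where DPPA5 and KHDC3L share a fragment. Primed markers carried more in primed cells in 7 of 8 genes with a listed promoter fragment, 4 of them without overlap between the libraries. Of genes chosen as common to both states, all 3 with a listed fragment were higher in naive cells, 1 of them without overlap. The median over all fragments tested was -0.29 (primed minus naive, log2), and the share without overlap was not counted over them. Of the cluster's 204 tiles, 95 (46.6%) exceeded 1 RPM (log2 above 0) in 2 or more libraries and were tested, against 59 and 69 of the 1000 tiles in the 500 kb on the 5′ and 3′ side. A tile could pass on the group where it was high.

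With limma and Benjamini-Hochberg adjustment over all 465156 tiles tested, 11 of the 95 tiles (11.6%) were higher in primed and 16 (16.8%) in naive PSCs. Over all tiles tested the shares were 25.9% and 26.1%, and the difference between HOXD and the rest was not tested. The median difference over the 95 tiles was 0.05 and over all tiles -0.08 (primed minus naive, log2). The 3′ side had 30 tiles higher in primed and 8 in naive cells, and the 5′ side 14 and 13. Centring each library on its median turned the split within the cluster from 11 and 16 to 18 and 16. Without naive replicate 1 the counts were 9 and 7, and without naive replicate 2 they were 6 and 9.

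Called tiles alternated along the cluster in 14 runs. Places in, before and between genes refer to the main transcript of each gene, and longer transcripts may cover some of them. Those at the start of HOXD12 and before HOXD11 were higher in primed cells, those around HOXD8 and between HOXD3/HOXD-AS2 and HOXD4 higher in naive cells, and those over HOXD4 again in primed cells. Beyond HOXD4 came 2 naive tiles, then 2 primed tiles in HOXD3, and those in HAGLR were higher in naive cells. No called tile had overlapping values between the states. The call itself favours tiles whose libraries lie apart, so this adds no support, and the share over all tested tiles was not counted.

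At HOXD12, a run of 3 tiles over the start and first exon (chr2:176099501-176101000) had a mean log2 RPM of -0.31 and -2.75 in the naive and 0.85, 1.31 and 0.62 in the primed libraries. The difference was 2.46 and the adjusted p-values of limma lay between 0.0033 and 0.01. The naive libraries differed widely between themselves here. Naive replicate 2, the shallowest library, had 1 read in each of the 3 tiles. Without naive replicate 2 only 1 of the 3 tiles was called. Not all 3 were called without primed replicate 3 either.

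Upstream of HOXD11 lay a run of 3 tiles, chr2:176104501-176106000, on the HOXD10/HOXD11 bait. It had -1.29 and -1.23 in naive and 0.85, 0.99 and 0.31 in primed libraries. All 3 tiles were called under only 4 of 12 alternatives, with 1 called without naive replicate 1 and 2 without naive replicate 2, and not all 3 without any one of the primed replicates. The tile chr2:176112501-176113000, between the main transcripts of HOXD11 and HOXD10, had -3.45 and -2.75 against 0.76, 1.02 and 0.31. Its difference of 3.80 (SE 0.61, limma adjusted p 0.00022) was held under every alternative apart from the filter on the mean over all libraries, which left it untested. Both of its naive values lie near the floor, and the second stands for 1 read, so the size of the difference rests on few reads.

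HOXD4 gave the widest primed margin. The tile over its second exon, chr2:176152501-176153000, had -4.45 and -2.91 in naive libraries, where the first value stands for 1 read and the second for an empty tile, against 0.31, 0.83 and 0.07 in primed ones. The difference was 4.08 (SE 0.63, limma adjusted p 0.00019). The tile at its start, chr2:176151501-176152000, had -1.64 and -1.75 against 0.31, 1.19 and 0.17, a difference of 2.25 (SE 0.57, limma adjusted p 0.0042). HOXD4 acts in hindbrain and upper spinal patterning. Single tiles in HOXD3 at chr2:176159501-176160000 and chr2:176171501-176172000 were also higher in primed cells, by 2.22 and 1.89, and both calls were lost without naive replicate 2. Between HOXD4 and HOXD3 single tiles at chr2:176154001-176154500 and chr2:176155001-176155500 were higher in naive cells, with differences of -2.42 and -1.31. The first was not called without naive replicate 2, and the second not without either naive replicate nor without primed replicate 3.

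In naive cells the longest run spanned 6 tiles, chr2:176141501-176144500, on the unbaited fragment next to the HOXD3/HOXD-AS2 bait. The run lies between main transcripts, but longer HOXD3 transcripts from the upstream start on that bait may span it. The 2 naive libraries had 1.64 and 0.92 and the 3 primed ones -0.73, -2.84 and -1.91. The mean difference was -3.11, and the tile printed above, chr2:176142001-176142500, had the widest one, -3.93 (SE 0.68, limma adjusted p 0.00034). Without naive replicate 1 the call was kept by 3 of the 6 tiles and without naive replicate 2 by 6.

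Over the end of HOXD8, chr2:176132001-176133000 had 0.83 and 0.56 in naive against -1.19, -1.98 and -1.57 in primed libraries. Neither of its 2 tiles was called without naive replicate 1, and 1 was without naive replicate 2. Before HOXD4, chr2:176148001-176149000 had 1.29 and 1.45 against 0.08, 0.27 and 0.19, so this stretch carried the mark in both states, and neither tile was called when either naive library was left out.

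HAGLR, an antisense RNA that runs from HOXD1 towards HOXD3, held 2 naive runs. The first, chr2:176173501-176174500, had 0.94 and 0.31 against -1.99, -2.19 and -1.78. The second, chr2:176179001-176180000, by the start of HAGLROS, had 0.95 and 1.19 against -1.19, -1.40 and -1.69. The values of the states did not overlap in either, as in every called tile. The first kept 1 of its 2 calls without naive replicate 1, without naive replicate 2 and with a replicate block, and the second kept 1 of 2 without naive replicate 2.

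At the starts of the other members no difference passed the test. The start tile of HOXD13 had -0.86 and -0.43 in naive and 1.10, 0.34 and -0.09 in primed libraries, a difference of 1.10 (SE 0.53, limma adjusted p 0.092), with no overlap. Those of HOXD11, HOXD9 and HOXD1 differed by 0.82, 0.77 and 0.68, and those of HOXD10 and HOXD8 by -0.40 and -0.22, with limma adjusted p-values between 0.15 and 0.72. The start of HOXD3 was not tested, as it passed the filter in 1 library only. Averaged over the tiles within 1000 bp of the start, the primed libraries were all above the naive ones for HOXD13, HOXD12, HOXD11 and HOXD4. For HOXD10, HOXD9, HOXD8, HOXD3 and HOXD1 the libraries of the states overlapped. These averages were not tested, and no tile in the windows of HOXD13 and HOXD11 was called. The share of promoters without overlap was not counted over all data. With so few libraries such a separation can arise by chance, so it is no evidence of a gain at untested or uncalled starts.

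**Figure D4:**
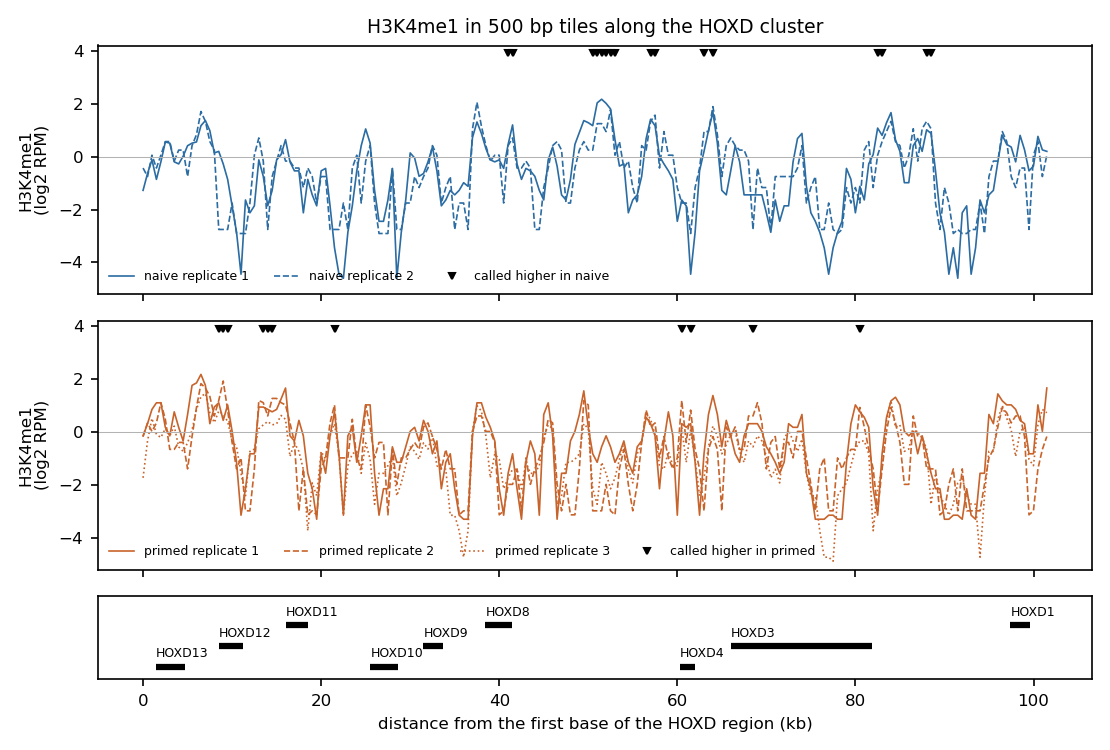
H3K4me1 (log2 RPM) in 500 bp tiles along the cluster for 2 naive (upper) and 3 primed libraries (middle), against the distance in kb from its first base, with the 9 genes below and triangles over tiles called higher in that state. The mark forms separate hills in both states, the 6 adjacent naive triangles are the run before HOXD4, and the primed triangles gather near HOXD12 and before HOXD11.

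The letters of AP-2 (GCCNNNGGC) and of the octamer (ATTTGCAT), motifs of factors known in naive and in pluripotent cells, were searched in the called tiles on both strands. AP-2 letters lay in 6 of 16 naive and 5 of 11 primed tiles, against 6.5% of all tiles of chromosome 2, and the cluster as a whole held 76.9 of them per 100 kb against 14.9. Octamer letters lay in 1 and 0 of them, against 5.25% of tiles.

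H3K4me1 was also averaged over HindIII fragments, so that it could be set beside the contacts. Of the 25 fragments of the cluster 9 were tested, 2 were higher in primed and 3 in naive cells, where 21.5% and 32.9% of the 7781 fragments tested over all data were. The HOXD12 bait rose by 0.99 (SE 0.33, limma adjusted p 0.03). The HOXD13 intron fragment, with 5 primed contacts and 0 naive ones, is shorter than a tile, so its value is that of the single 500 bp tile around it, most of which lies outside the fragment. It had 0.51 and 0.57 in naive and -0.15, -0.66 and -0.15 in primed libraries. This passed among fragments (limma adjusted p 0.049), but not without the filter (limma adjusted p 0.087) nor as a tile (difference -0.86, SE 0.49, limma adjusted p 0.16). The fragment of the naive run before HOXD4 differed by -1.37 (SE 0.41, limma adjusted p 0.019).

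Among the 111 partners 13 passed the filter, and 2 of these were higher in primed and 0 in naive cells. Without a filter the counts were 13 and 3 of 111, where 9.81% and 15.2% of all 88413 fragments were called. One of the 2 was chr2:175371074-175373552 near ATP5MC3, contacted 4 times in each state, with -1.62 and -2.06 in naive and 0.71, 0.01 and 0.16 in primed libraries, a difference of 2.13 (SE 0.35, limma adjusted p 0.00097). The other was chr2:176819739-176820907, contacted once and only in primed cells, with -2.48 and -2.91 against 0.55, 0.22 and -0.29, a difference of 2.85 (SE 0.35, limma adjusted p 0.00025).

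In the LINC01116 block none of the 28 fragments passed the filter and 8 were higher in primed cells without it. The fragment chr2:176652387-176655099 is an example, with -2.09 and -1.75 in naive and 0.76, -0.54 and -0.15 in primed libraries, and with 4 naive and 7 primed contacts. The DLX fragments, with 59 primed interactions, were not called. The DLX1 fragment chr2:172081442-172085480 carried the mark in both states, at 0.91 and 0.73 in naive and 1.23, 0.56 and 0.78 in primed libraries (difference 0.04, SE 0.34, limma adjusted p 0.94). All 5 DLX fragments and both SP9 fragments that passed the filter had differences between 0.04 and 0.33, none past the test.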

How the data were processed

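The members and gene lists were chosen with earlier results of these data known. Per the labels and methods, PCHi-C and Hi-C reads were mapped with HiCUP to GRCh38, and the authors deposited CHiCAGO interactions as pairs of HindIII fragments with a read count, combined over replicates and rounded, and a score. Hi-C was deposited by the authors as contact counts in 100 kb bins. H3K4me1 CUT&RUN was trimmed with Trim Galore, aligned with Bowtie2 and deposited by the authors as log2 RPM per 500 bp tile from SeqMonk, where whole reads could be recovered.

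Promoters were the GENCODE v44 starts with 1000 bp upstream. Ratios of interaction numbers have 95% intervals from counting error, shares Wilson intervals and Hi-C ratios exact Poisson intervals. Tiles with log2 RPM above 0 in at least 2 libraries were tested with limma 3.58.1 (trend, Benjamini-Hochberg threshold 0.05, R 4.3.3), checked on simulated data, with edgeR 4.0.16 on recovered reads as an alternative. Named were all members, the listed neighbours and developmental regulators, distal baited partners by score, and the 5 called tiles and partner fragments with the widest difference in each direction. The runs of tiles, the HOXD13 intron fragment, the DLX fragments and the named LINC01116 fragment were chosen after their values were seen. The H3K4me1 libraries were not treated as paired, as their labels give only a replicate number. The SOX2, NANOG and input libraries were not used here. The values of 1 marker gene are not reported here.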

Additional observations from a re-analysis of the deposited data

How the results depend on the processing

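The ratio of primed to naive HOXD interactions was 2.16 with a score of at least 10 and 1.29 with at least 10 reads, and that over 1 Mb was 20.7 and 5.20. Over 2 Mb (0 against 65) and 5 Mb (0 against 6) no ratio could be formed. The shared interactions were 90.7% of naive and 65.0% of primed ones within 10 kb, and 93.9% and 51.9% with a score of 10 in the one and 5 in the other. Of the tiles in the cluster, 2 and 2 of 50 were higher in primed and in naive cells with a mean log2 RPM above 0, 18 in primed with centred libraries, and 2 and 3 of 9 as fragments. Leaving out a library gave 6 to 13 and 7 to 19. Of the partners, 13 and 3 of 111 were called without a filter and 0 with the filter on the mean, and 2 to 3 in primed when a library was left out. The primed DLX ratio in Hi-C was 7.57 with coverage scaling. The order of the 2 counts of tiles, fewer in primed than in naive cells, turned with centred libraries (18 against 16) and without naive replicate 1 (9 against 7). No single tile of a run turned its direction.

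With the replicate block 11 and 14 tiles and 2 and 0 partners were called. Same-numbered libraries deviated with correlations of -0.007 and 0.038 over 223 tiles. The deviations of the 2 naive libraries mirror each other, so these values cannot settle whether same-numbered libraries were paired. With edgeR on recovered reads, chosen after seeing the data, 15 and 19 tiles were called. PCHi-C has 1 list and Hi-C 1 library per state, so their differences have no replicate check.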
